A study of Homo sapiens with 4 samples.

Results

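Annotated alternative last exons are pairs of terminal exons of a gene, joined to the same upstream splice site, in which both endings belong to transcripts already present in the Ensembl annotation. They were taken from 4 lists of alternative splicing events, 1 for each library of long-read cDNA. An event of the alternative last exon type was kept where its first form and its second form each held at least 1 Ensembl transcript. This gave 5827 distinct events in 1813 genes, which is 26.8% of the 21728 distinct events of that type and 6.81% of the 85625 distinct events, of all 7 types, with an Ensembl transcript in both forms. The 4 lists held 287868 distinct events in all. Of the 15901 last exon events left out, 13047 had Ensembl transcripts in 1 form only and 2854 had none.

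The study sequenced full-length cDNA from cells labelled Huh7, a hepatocellular carcinoma line, grown in DMEM with serum and transfected with siRNA by Lipofectamine. Knockdown cells received siRNA against STAMBPL1, a deubiquitinase (siSTAMBPL1, replicates 1 and 2), and control cells received the negative control siRNA (siNC, replicates 1 and 2). All libraries were made from total RNA with a SMART PCR cDNA kit and read on a PacBio Sequel instrument. The labels do not say whether replicates came from separate cultures, so p-values measure only the spread between these samples, which may be technical. The lists hold no read number, so an event was listed in a library or it was not.

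A gene makes alternative last exons when its transcript can be cleaved and polyadenylated in more than 1 place and splicing chooses between terminal exons. Use of the proximal ending removes the exons behind it and so usually changes the end of the protein as well as the 3′ untranslated region, whereas cleavage within an intron can give truncated proteins or noncoding transcripts. The U1 snRNP and the cleavage and polyadenylation factors are known to set the balance between early and late endings. In the account below the proximal end is the one nearer the shared splice site, and the distance is counted in bases of hg38 between the 2 ends. An annotated end is the last base of an Ensembl transcript and need not be a mapped cleavage site.

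Some of these events span another annotated transcription unit. Mature miRNAs encoded between the ends are shown because their hairpins lie before the distal annotated end and beyond the proximal one. Transcription between the ends was not measured. On the strand of the host gene, 24 miRNA hairpins lay between the ends of 47 events in 20 genes. The 7 hairpins whose host event was listed in 3 or more libraries give the 12 mature miRNAs printed here from RefSeq (GRCh38.p14), 5′ to 3′, with the seed (bases 2 to 8) in capitals. The 12 have 12 distinct seeds.
hsa-miR-573: cUGAAGUGauguguaacugaucag
hsa-miR-9986: uGUGAGGUugucaugccugc
hsa-miR-23b-3p: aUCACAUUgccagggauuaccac
hsa-miR-23b-5p: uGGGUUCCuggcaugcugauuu
hsa-miR-27b-3p: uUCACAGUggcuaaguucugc
hsa-miR-27b-5p: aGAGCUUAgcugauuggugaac
hsa-miR-24-3p: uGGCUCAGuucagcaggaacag
hsa-miR-24-1-5p: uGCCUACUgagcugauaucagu
hsa-miR-1180-3p: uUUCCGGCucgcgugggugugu
hsa-miR-1180-5p: gGACCCACccggccgggaaua
hsa-miR-3691-3p: aCCAAGUCugcgucauccucuc
hsa-miR-3691-5p: aGUGGAUGauggagacucgguac

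Of these, miR-573 (chr4:24520192-24520290, minus strand) began 7185 bases beyond the proximal end of an event of DHX15, a helicase that dismantles spliceosomes, with ends 10034 bases apart. That event was listed in all 4 libraries, and in siNC replicate 1 it was carried by the proximal end only. The miR-9986 hairpin (chr2:132433711-132433820, plus strand) lay in the 228053 bases between the ends of GPR39, a zinc-sensing receptor, whose event was also listed in all 4 libraries. MIR23B, MIR27B and MIR24-1, which form a known cluster, lay 2173, 2410 and 2986 bases beyond the proximal end of an event of AOPEP, an aminopeptidase gene, with ends 3696 bases apart. The AOPEP event was carried by the proximal end only in siSTAMBPL1 replicate 1 and in siNC replicate 2, had its distal end found in siNC replicate 1, and was not listed in siSTAMBPL1 replicate 2. MIR1180 lay in an event of B9D1, a gene of the ciliary transition zone, whose distal end was found in both siSTAMBPL1 libraries and in siNC replicate 1, while the event was not listed in siNC replicate 2. MIR3691 lay in an event of LYRM4, an iron-sulfur cluster assembly gene, listed in siSTAMBPL1 replicate 1 and in both siNC libraries without a settled end.

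Other genes also start between the ends. A RefSeq gene on the same strand began between them in 139 events (2.39%), and a protein-coding gene in 69 events of 25 genes. Of these 69 events, 15 were listed in all 4 libraries. Many of the 69 were pairs of the noncoding gene MIR4435-2HG around the start of LOC124907867, none of them listed in all 4 libraries. Promoters of 2 protein-coding genes that start between the ends are shown as examples, chosen after the values were seen. The host event was carried by its proximal end only in 4 libraries for NUP98 and in 3 for MORC3, where it was not settled in the remaining one. NUP98 encodes a nuclear pore protein, and the start of CHRNA10, a nicotinic receptor subunit, lies 3627 bases beyond its proximal end. MORC3 encodes a nuclear ATPase, and the start of CHAF1B, a subunit of a histone chaperone, lies 8760 bases beyond its proximal end. The sequences run from 250 bases before to 50 bases after the RefSeq start (GRCh38.p14), with motif matches on either strand in capitals. The motifs searched were GGGCGG (the GC box), CCAAT (the box of that name), TATAAA (the core promoter box) and AATAAA (the letters of the polyadenylation signal), and matches may overlap. The CHRNA10 window is chr11:3671335-3671634 on the minus strand and the CHAF1B window is chr21:36385142-36385441 on the plus strand.
CHRNA10: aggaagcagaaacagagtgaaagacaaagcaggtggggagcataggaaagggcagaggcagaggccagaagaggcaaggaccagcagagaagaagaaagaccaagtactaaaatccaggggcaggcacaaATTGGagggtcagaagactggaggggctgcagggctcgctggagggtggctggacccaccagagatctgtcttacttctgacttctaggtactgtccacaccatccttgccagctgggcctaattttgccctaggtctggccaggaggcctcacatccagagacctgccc
CHAF1B: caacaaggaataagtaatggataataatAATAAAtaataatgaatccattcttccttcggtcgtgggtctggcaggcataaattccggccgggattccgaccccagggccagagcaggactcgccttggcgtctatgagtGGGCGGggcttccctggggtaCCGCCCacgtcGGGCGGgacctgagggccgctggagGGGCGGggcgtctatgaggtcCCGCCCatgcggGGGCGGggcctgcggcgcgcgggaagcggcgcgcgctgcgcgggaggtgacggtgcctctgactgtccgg

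The CHRNA10 window holds 1 match and the CHAF1B window holds 7. Over 35116 RefSeq promoter windows of the same length, 45.0% hold GGGCGG, 34.6% CCAAT, 11.5% TATAAA and 17.4% AATAAA on either strand. Among the other pairs listed in all 4 libraries were TUSC2 and HYAL2, GSTM4 and GSTM2, and IFRD1 and LSMEM1. TUSC2 had its proximal end only in both siSTAMBPL1 libraries and in siNC replicate 1, and its distal end found in siNC replicate 2. GSTM4 had its proximal end only in those same 3 libraries.

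The targeted gene has such an event itself. STAMBPL1 (ENSG00000138134, chromosome 10, plus strand) ends either in an exon at 88923168 to 88923487, shared by 3 Ensembl transcripts, or in an exon at 88973182 to 88975153 of 1 Ensembl transcript, 51666 bases further on. The RefSeq span of FAS, the death receptor gene on the same strand, begins 40563 bases beyond the proximal end. The event was listed in all 4 libraries, and which end carried it could not be settled in any. Over all types, STAMBPL1 had 1 and 1 events in siSTAMBPL1 replicates 1 and 2, against 3 and 6 in siNC replicates 1 and 2. Long-read transcripts without an Ensembl name, called PB transcripts from their identifiers, numbered 0 and 0 in siSTAMBPL1 and 1 and 4 in siNC within those events. Both siSTAMBPL1 libraries were below both siNC libraries, and the fitted difference on the log2(scaled events + 1) scale was -1.14 ± 0.47 (SE), with an adjusted p of 0.741 in limma over all genes. Its relative STAMBP had 8 and 9 events in siSTAMBPL1 and 12 and 10 in siNC, none an annotated last exon event.

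Libraries differed in how much they listed. All event types together gave 119505 and 94432 events in siSTAMBPL1 replicates 1 and 2, against 140317 and 142215 in siNC replicates 1 and 2, and PB transcripts numbered 25463 and 17584 against 32307 and 32750. Both measures were lower in both siSTAMBPL1 libraries, and their part in the differences below was not tested. Of 19 hepatocyte markers fixed for checking the label, 3 had any event, summing to 5 and 4 events in siSTAMBPL1 and 8 and 11 in siNC. ALB, APOA1, APOB, SERPINA1 and AFP had none, and a gene without an event is not shown to be silent. Markers of other cell types had events for 2 of 4 cholangiocyte genes, 2 of 4 endothelial genes, 1 of 7 stellate genes and 1 of 5 immune genes. Most of these events were of KRT7, a keratin of ducts, with 19 and 9 in siSTAMBPL1 and 27 and 38 in siNC.

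Annotated last exon events were fewer in the knockdown libraries, beside shorter lists overall. They numbered 3136 and 2638 in siSTAMBPL1 replicates 1 and 2, against 3361 and 3631 in siNC replicates 1 and 2. The means were 2887 ± 352 and 3496 ± 191 (SD, n = 2 each), a ratio of 0.826 without overlap of the groups. An exact two-sided permutation test gave p = 0.333, the smallest that 2 against 2 libraries can give, and 1 after Benjamini-Hochberg adjustment over 6 measures. As a share of the library's annotated events of every type, they made up 5.06% and 4.79% in siSTAMBPL1, against 5.14% and 5.47% in siNC. The exact (Clopper-Pearson) 95% intervals were 4.89 to 5.23% and 4.61 to 4.97% in siSTAMBPL1, and 4.97 to 5.31% and 5.30 to 5.64% in siNC. They cover counting error only and treat events as independent. Events of a gene share transcripts, so the intervals are too narrow and do not compare the groups. The difference of the mean shares was -0.381 percentage points, again without overlap and with an exact p of 0.333.

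The events fell in 1259 and 1130 genes in siSTAMBPL1 and in 1363 and 1388 genes in siNC. A PB transcript stood in 9.69% and 6.75% of the events in siSTAMBPL1 and in 9.31% and 8.10% in siNC, overlapping ranges with an exact p of 1. Most listed events thus rested on Ensembl transcripts alone.

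Which end was present could be worked out for part of the events. The Ensembl transcripts given for an event did not vary between lists, and the lists fit the reading that an event was entered once any of its transcripts had been found. A transcript of an event missing from a list was therefore taken as not found in that library, and the only transcript left in a listed event as found. By this reading, both ends were found in 68 and 46 events in siSTAMBPL1, against 69 and 76 in siNC. The proximal end alone carried 803 and 773 events in siSTAMBPL1 and 754 and 887 in siNC. Events carried by the distal end alone numbered 708 and 662 in siSTAMBPL1 and 717 and 748 in siNC. Neither end was settled in 1094 and 837 events in siSTAMBPL1 and in 1343 and 1450 in siNC.

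Events carried by the proximal end alone and by the distal end alone were similar in number in each library. These are counts of pairs, and an end lying between others is distal in some pairs and proximal in others. The shares below therefore do not measure how often early or late ends were used. Among events carried by 1 end, the distal share was 46.9% of 1511 and 46.1% of 1435 in siSTAMBPL1, against 48.7% of 1471 and 45.7% of 1635 in siNC. Means were 46.5 ± 0.512% and 47.2 ± 2.12% (SD, n = 2 each), overlapping, with an exact two-sided p of 1. Where only PB transcripts were counted, the distal share was 53.7% of 300 and 49.4% of 176 in siSTAMBPL1 and 53.2% of 308 and 48.5% of 291 in siNC, with an exact p of 0.667. With 2 libraries a group these values do not show that the groups are alike. The group means differed by -0.751 percentage points in the inferred share and by 0.699 in the share by PB transcripts. Both differences were smaller than that between the siNC replicates. For the inferred share, the difference was slightly larger than that between the siSTAMBPL1 replicates.

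**Figure D1:**
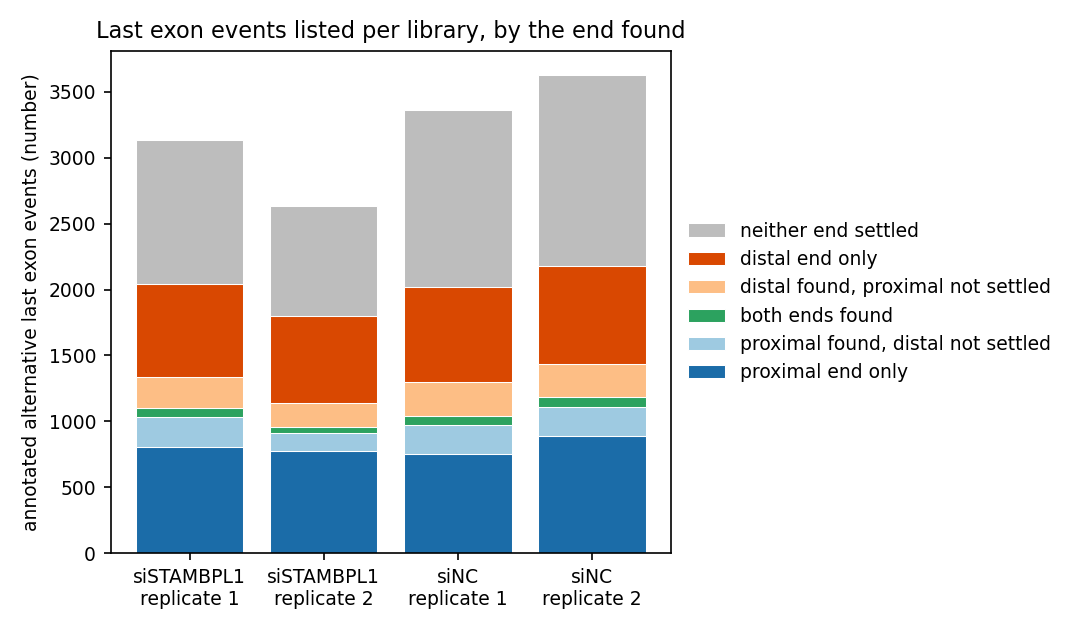
Number of annotated alternative last exon events listed in each library (vertical axis), siSTAMBPL1 replicates left of siNC replicates, stacked by which end was found. The proximal-only and distal-only blocks are of like height within each bar, and the block without a settled end is larger in the siNC libraries (1343 and 1450) beside the siSTAMBPL1 libraries (1094 and 837).

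Distances between the ends covered several orders of magnitude. The median was 5796 bases, the middle 50% of events lay between 2396.5 and 14682 bases, and the extremes were 51 and 300718 bases. Under 1000 bases lay 518 events, 3358 lay from 1000 to under 10000, 1831 from 10000 to under 100000, and 120 at 100000 or more. The proximal last exon had a median length of 435 bases and the distal one of 541 bases, and the distal exon was the longer in 56.0% of events. Library medians of the distance were 5856.5 and 5750.5 bases in siSTAMBPL1, against 5575 and 5805 in siNC, overlapping, with an exact p of 0.667.

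Events of middle distance recurred somewhat more often than those at either extreme. Listed in all 4 libraries were 18.1% of events under 1000 bases, 25.6% and 24.4% of the 2 middle classes, and 18.3% of those at 100000 bases or more. Among events listed everywhere, the smallest distances were 65 bases in ZNF286A, 99 in IFNAR2, 101 in TMEM33, 108 in TNIP1 and 126 in GAPVD1. IFNAR2 encodes a chain of the type I interferon receptor, and its short pair was carried by the proximal end in both siSTAMBPL1 libraries and siNC replicate 2 and by the distal end in siNC replicate 1. TNIP1, an inhibitor of NF-κB signalling, had the distal end only in both siSTAMBPL1 libraries, and neither end settled in siNC. The largest distances were 228437 bases in PDE10A, 228053 in GPR39, 198562 in AEBP2, and 186094 and 184052 in FTO, the RNA demethylase gene. Both FTO events reach the RefSeq end of the gene and were unsettled in every library.

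**Figure D2:**
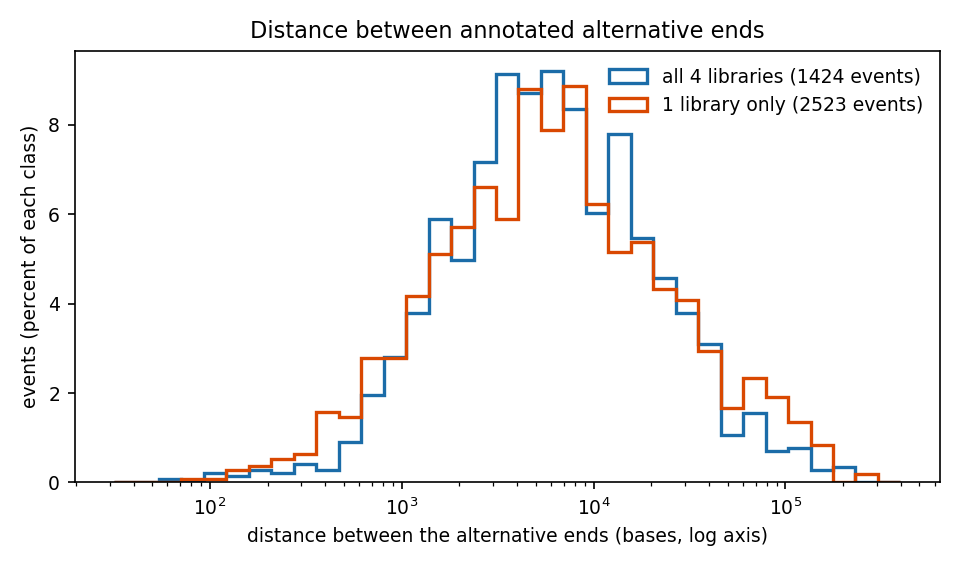
Distribution of the distance between alternative ends (horizontal log axis, bases) for events listed in all 4 libraries (1424) and in 1 library only (2523), each as a percent of its class. Both curves peak between 1000 and 10000 bases and overlap over the whole range.

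The distal end was set against the RefSeq gene end for 5372 events of genes with a symbol. It lay within 50 bases of that end in 1480 events (27.6%), further inside the gene in 2911 (54.2%) and past it in 981 (18.3%). Events whose distal end met the RefSeq end were listed in all 4 libraries in 37.2% of cases, against 27.5% for those that ran past it and 19.1% for those inside. The events that ran past it had a median distance of 11975 bases.

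The members were spread unevenly over genes. A median gene had 2 events and 756 genes had 1, while 92 genes had 10 or more and the 10 richest held 611 events (10.5%). The count grows because every end found is paired with every annotated alternative of the same splice site, so events of a gene share transcripts and are not independent. Exactly 1 Ensembl transcript stood in each form in 84.6% of the events. Protein-coding genes numbered 1545 and noncoding RNA genes 150, of the 1719 with a symbol. Events of coding genes were listed in all 4 libraries in 28.8% of cases, and those of noncoding RNA genes in 9.29%.

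At the head stood ENSG00000261824, a gene of chromosome 19 without an assigned symbol, with 181 events, of which 92 and 73 were listed in siSTAMBPL1 and 14 and 85 in siNC. Its siNC replicates were further apart than the groups. JPX, a noncoding RNA that activates XIST, had 92 events, with 32 and 0 in siSTAMBPL1 and 50 and 16 in siNC. MIR4435-2HG, a noncoding host gene on chromosome 2, had 72, with 27 and 12 in siSTAMBPL1 and 45 and 58 in siNC. EPIC1, a noncoding RNA gene, had 44, with 21 and 4 in siSTAMBPL1 and 0 and 20 in siNC. PIGN, an enzyme of GPI anchor synthesis, was the coding gene with the most events, 43, of which 42 and 23 were listed in siSTAMBPL1 and 9 and 25 in siNC. Only MIR4435-2HG of these 5 separated the groups, with both siSTAMBPL1 libraries below both siNC libraries.

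Recurrence between libraries was low. Of the 5827 events, 1424 (24.4%) were listed in all 4 libraries, 787 (13.5%) in 3, 1093 (18.8%) in 2 and 2523 (43.3%) in 1. Since fewer transcripts leave fewer chances to be listed, types were set side by side over events with 1 Ensembl transcript in each form. By that measure 22.8% of 4931 annotated last exon events were in all 4 libraries, against 23.5% of mutually exclusive exons, 33.9% of alternative first exons, 34.0% of alternative 5′ splice sites, 36.4% of alternative 3′ splice sites, 36.8% of retained introns and 41.2% of skipped exons. Those listed in 1 library made up 45.3% of the last exon events and 33.9% of all types together. These shares are a description, as events of a gene share transcripts.

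**Figure D3:**
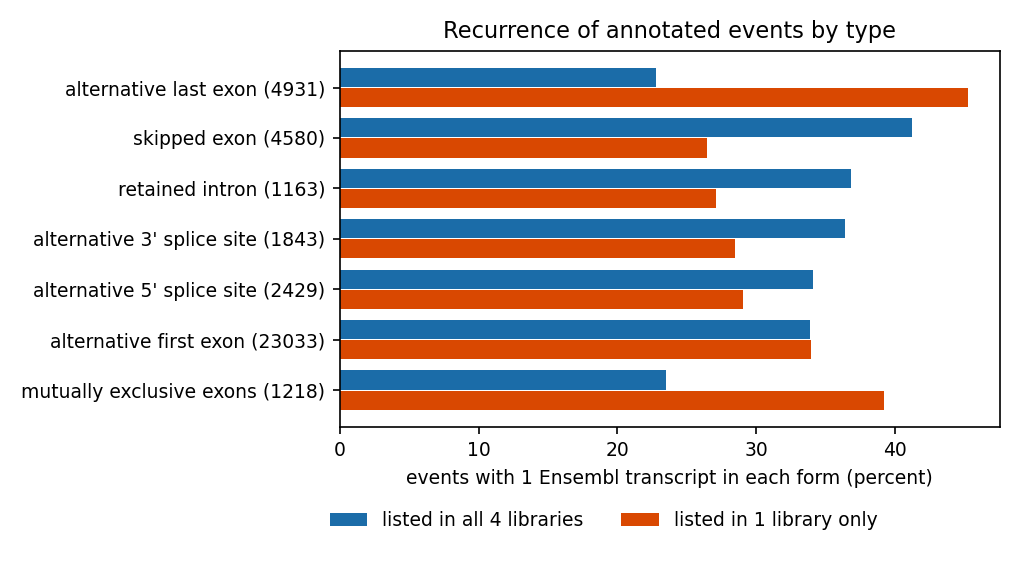
Percent of annotated events with 1 Ensembl transcript in each form that were listed in all 4 libraries and in 1 library only, by event type, with the number of events in brackets. Last exon events have 22.8% in all 4 and 45.3% in 1 library, and skipped exons 41.2% in all 4.

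Taking each last exon by itself, counted by its start and end together, the 5827 events hold 6717 distinct annotated last exons. Of these, 1103 and 968 were found in siSTAMBPL1, against 1097 and 1109 in siNC. Found in all 4 libraries were 257 last exons in 211 genes. In 41 genes there were at least 2 such exons, which can share a start and differ only in their end, as in TPM1. In 15 genes they ended over 1000 bases apart. In the others they lay closer, down to 1 base apart in PTPA, the activator of phosphatase 2A, and in ACTR6, a chromatin remodelling subunit.

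FBXW11, a substrate receptor of SCF ubiquitin ligases, had 3 last exons found in every library, spread over 2378 bases. TCF12, a helix-loop-helix transcription factor, had a pair ending 1768 bases apart, and TBL1XR1, a subunit of nuclear receptor corepressor complexes, a pair 1427 bases apart. LCOR, a ligand-dependent corepressor, had a pair 5550 bases apart, and HDAC8, a histone deacetylase, had a pair 143900 bases apart that belong to different upstream splice sites. In HDAC8 the events at the first of these sites were carried by the proximal end of 1314 bases in every library, at a distance of 8748 bases from 1 of its alternatives.

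Both ends of the same event in every library were found in SRSF10 only, a splicing factor of the SR family. On the minus strand of chromosome 1 its proximal last exon spans 23970379 to 23971439 and its distal one 23964804 to 23967723, with ends 5575 bases apart. In at least 3 libraries, both ends were found in 14 events of 13 genes, a set singled out after the values were seen. Besides SRSF10 these were CEP63, CERT1, ZNF451, ST7, REPIN1, FBXL18, KMT5B, PIGN, ABHD12, SUGP2, DEDD2 and IFNAR2. CERT1, the ceramide transfer protein, lacked its distal end in siSTAMBPL1 replicate 2. CEP63, a centrosomal protein, lacked its distal end in siNC replicate 1. KMT5B, a histone methyltransferase, had both ends in siSTAMBPL1 replicate 2 and both siNC libraries.

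Steady use of an end was also seen. Of the 1424 events listed in all 4 libraries, 106 events of 55 genes were carried by the proximal end alone in each, at a median distance of 8808.5 bases. The distal end alone carried 97 events of 48 genes, at a median distance of 3997 bases. Events of a gene share transcripts, so genes with many annotated ends, such as TPM1, weigh more in these counts and medians. A further 346 events, of 251 genes, stayed unsettled in all 4.

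Genes known for alternative last exons or intronic polyadenylation were taken from a list of 32, of which 30 had an event of any type and 10 had a member. They held 81 events, 33 of them (40.7%) listed in all 4 libraries, with a median distance of 4540 bases, beside 24.4% and 5796 bases over all members. TPM1 alone holds 36 of the 81 and 18 of the 33, and its events share transcripts. TPM1, TPM3 and TPM4 encode tropomyosins, actin-binding coiled coils whose muscle and nonmuscle forms differ in their last exons. TPM1 had 18 and 24 events in siSTAMBPL1 and 18 and 31 in siNC, TPM3 had 8 and 8 against 6 and 6, and TPM4 had 6 and 6 against 6 and 9.

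All 3 tropomyosins used their distal last exon in every library. From its main splice site TPM1 has 17 annotated last exons, counted by start and end as for the other 2 genes. Of these, 3 were found in all 4 libraries, ending at 8618, 9244 and 9267 bases from the site. They share the start 63071090 and so are different ends of the same exon. The early end at 2633 bases was not found in any library, and that at 3447 bases was found in siNC replicate 2 only. TPM3 has 7 last exons from its main site, and the one ending at 15092 bases was found in every library, while those at 11788 and 11791 bases were found in none. TPM4 has 8, and the one ending at 9249 bases was found in every library, while those at 1701, 1743 and 2991 bases were found in none. Some ends near the main one were found in 1 library, such as that at 9201 bases in siNC replicate 1 and that at 9227 bases in siSTAMBPL1 replicate 2.

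**Figure D4:**
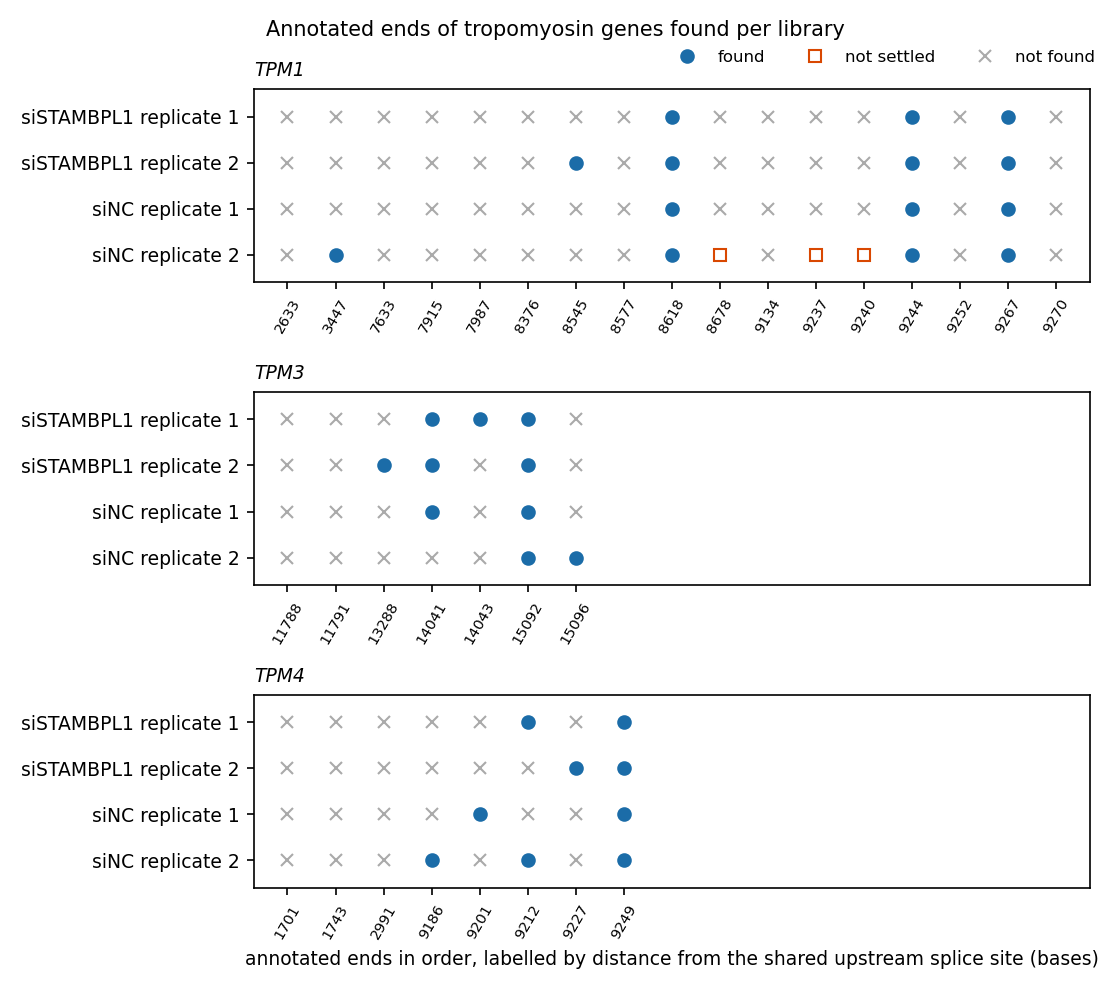
Annotated last exons of TPM1, TPM3 and TPM4, in order along the horizontal axis and labelled by the distance of their end from the shared splice site (bases), for siSTAMBPL1 libraries above siNC libraries. Filled circles mark ends found, open squares ends not settled and crosses ends not found. The same distal ends are filled in all 4 rows (8618, 9244 and 9267 bases in TPM1, 15092 in TPM3, 9249 in TPM4).

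CDC42, a small GTPase with epithelial and brain last exons, had 6 events listed in all 4 libraries. Its last exon of 1496 bases was found in siSTAMBPL1 replicate 1 and in both siNC libraries and was not settled in siSTAMBPL1 replicate 2. TMPO, a nuclear lamina gene, had 2 events, both listed everywhere and unsettled. OAS1, the interferon-induced oligoadenylate synthetase, had 3 events, listed in neither siSTAMBPL1 library and in both siNC libraries, with distances of 665, 7561 and 13347 bases. Over all types OAS1 had 4 and 1 events in siSTAMBPL1 and 18 and 10 in siNC, a fitted difference of -1.90 ± 0.56 (SE), which did not pass in limma (adjusted p = 0.615). MKNK2, HBS1L, EGFR and CDK13 had 1, 2, 2 and 2 events that were missing from 1 or 2 libraries without separating the groups.

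Of 30 genes of the 3′ end processing machinery, 28 had an event of any type and 3 had a member, WDR33, CCNK and PABPC1, beside 1813 of 11931 genes over the whole series. WDR33, which binds the polyadenylation signal, had 1 event, listed in siSTAMBPL1 replicate 2 and siNC replicate 2. CCNK, the cyclin of CDK12 and CDK13, had 2 events and PABPC1, the cytoplasmic poly(A)-binding protein, had 3, of which 4 in all were listed everywhere. None of the 6 was listed in both libraries of 1 group only.

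Listing in both libraries of a group and neither of the other was then counted. In both siSTAMBPL1 libraries only were 125 events (2.15%) of 68 genes, beside 1.33% of all annotated events and 1.09% of all events. The gene ENSG00000261824 alone gave 33 of the 125, so this share leans on 1 gene whose events are not independent. In both siNC libraries only were 317 events (5.44%) of 182 genes, beside 4.40% of all annotated events and 3.44% of all events. Over events with 1 Ensembl transcript in each form, the siSTAMBPL1 share was 2.39% of the members beside 1.73% of all types, and the siNC share was 5.52% of the members beside 5.58% of all types. The larger siNC count stands beside longer siNC lists, and a test of whether a single event is listed cannot go below an exact two-sided p of 0.333 with 2 against 2 libraries. Leaving out a library in turn gave 219 to 687 events for siSTAMBPL1 and 472 to 1138 for siNC, as fewer libraries then had to lack or share an event.

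Of the 125, 33 belonged to ENSG00000261824. ZEB2, a repressor of epithelial genes, gave 8, all sharing the proximal last exon at 144513423 to 144513797 on chromosome 2 paired with ends 9761 to 86910 bases further on. A transcript with that exon was found in both siSTAMBPL1 libraries and in neither siNC library. ZEB2 had 10 and 10 member events in siSTAMBPL1 and 2 and 4 in siNC, and 43 and 42 events of all types against 17 and 37. SDHAP2, a pseudogene of a succinate dehydrogenase subunit, gave 4, with 8 and 8 events in siSTAMBPL1 and 4 and 4 in siNC. TSEN15, a subunit of the tRNA splicing endonuclease, and LINC01484 gave 3 each, all their members. RAP1GDS1, ZNF131, SYNPO2 and RGL3 gave 2 each, with 2 and 2 in siSTAMBPL1 and 0 and 0 in siNC.

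Of the 317, 17 belonged to MIR4435-2HG. BRAF, the kinase of the MAPK cascade, gave 7, with 1 and 1 member events in siSTAMBPL1 and 8 and 8 in siNC. All BRAF events share the distal exon ending at 140725145 on chromosome 7, which was found in siNC replicate 1, was not settled in siNC replicate 2 and was not found in the siSTAMBPL1 libraries. The BRAF event listed in all 4 libraries was carried in both siSTAMBPL1 libraries by the proximal exon of 4106 bases. Over all types BRAF had 19 and 19 events in siSTAMBPL1 and 21 and 19 in siNC. ALDH3A2, a fatty aldehyde dehydrogenase, gave 7, with 5 and 5 in siSTAMBPL1 and 12 and 14 in siNC. RNASEH2B gave 7, with 9 and 2 in siSTAMBPL1 and 9 and 23 in siNC, overlapping groups. UROS, an enzyme of heme synthesis, gave 4, with 0 and 0 in siSTAMBPL1 and 4 and 4 in siNC. TDRKH gave 4, with 0 and 0 against 4 and 6, and INPP4A, a phosphoinositide phosphatase, gave 4, with 1 and 2 against 6 and 6. CCDC32 gave 6 and ENSG00000179818 gave 5.

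**Figure D5:**
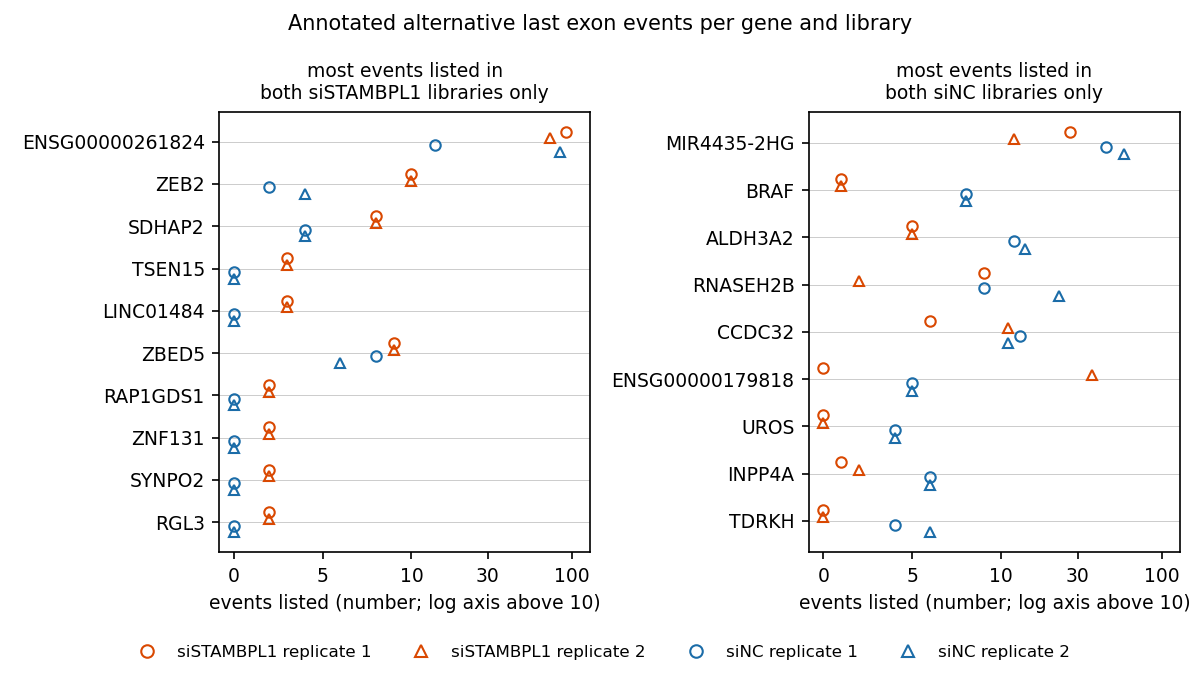
Annotated alternative last exon events per library (horizontal axis, number, log above 10) for genes with most events listed in both siSTAMBPL1 libraries only (left panel) and in both siNC libraries only (right panel). ZEB2 lies at 10 and 10 in siSTAMBPL1 and 2 and 4 in siNC, and BRAF at 1 and 1 in siSTAMBPL1 and 8 and 8 in siNC, whereas RNASEH2B and ENSG00000179818 overlap between groups.

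The form of an event, taken as a pair of annotated ends, was seen to reverse between groups in 1 of the 1424 events listed in all 4 libraries. A reversal can be seen only where 1 end alone carried the event in each library. Of the 1424, 346 were unsettled in all 4 libraries and others in some, so 1 in 1424 is not a rate of reversal. ZBED5, a gene derived from a transposase, has an event on the minus strand of chromosome 11 with a proximal last exon at 10854767 to 10855086 and a distal one at 10849897 to 10850103, 4870 bases apart. It was carried by the distal end only in both siSTAMBPL1 libraries and by the proximal end only in both siNC libraries. Last exons of ZBED5 ending at 10852704 and 10852706 were found in all 4 libraries. The one ending at 10852706 starts at the same base, 10855086, as the proximal exon above. Paired with the same distal exon, it was found beside the distal end in both siSTAMBPL1 libraries and alone in both siNC libraries. On the proximal side the reversal thus concerns a shorter annotated end of an exon found in both groups. The distal exon at 10849897 to 10850103 itself was found in both siSTAMBPL1 libraries and not found in either siNC library. The gene had 17 and 17 events of all types in siSTAMBPL1 and 21 and 14 in siNC, so the groups overlap there.

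By last exon, 30 of the 6717 (0.447%) in 29 genes were found in both siSTAMBPL1 libraries and not found in either siNC library, and 65 (0.968%) in 64 genes showed the reverse. For Ensembl transcripts with a status in all 4 libraries the counts were 28 of 2325 (1.20%) and 45 (1.94%) among the members. The background was 0.800% and 1.87% over annotated events of every type, the members included, so the siNC share lay near its background and the siSTAMBPL1 share above it, a difference that was not tested.

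Examples from the first group, chosen after the values were seen, are VDAC1, the outer mitochondrial membrane channel, with a last exon of 456 bases whose alternative ends 8059 bases further on. Others there are TAF4, BPTF, MAZ and GRK6. The siNC group includes CSF1, the macrophage growth factor, in which the proximal last exon of 681 bases and another of 183 bases were found in both siNC libraries only. The event ending at the RefSeq end was carried by its distal end alone in both siSTAMBPL1 libraries. In both siNC libraries both of its ends were found, so the distal end was found in all 4 libraries. CSF1 had 7 and 8 events of all types in siSTAMBPL1 and 18 and 19 in siNC, a fitted difference of -0.82 ± 0.30 (SE) with an adjusted p of 0.685 in limma. CCNC, SMARCA4, RBM4, GAS5 and FMR1 also had a last exon found in both siNC libraries only. For FMR1, the translational regulator lost in fragile X syndrome, that exon was 2443 bases long, and last exons of 2437 and 2430 bases from the same splice site were listed in other combinations of libraries, so a few bases decide the group. In LINC00667 a last exon of 2915 bases was found in both siSTAMBPL1 libraries and one of 2901 bases in both siNC libraries.

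The count of events of every type per gene was fitted for 9933 genes with at least 5 events. No gene passed in either direction in limma (0%, Benjamini-Hochberg adjusted p under 0.05), and at an unadjusted p under 0.05 there were 293 genes higher and 437 lower in siSTAMBPL1. That balance depends on the scaling, with 186 higher and 994 lower without scaling and 209 and 487 with upper quartile scaling. Leaving out siNC replicate 1 gave 330 genes lower and 0 higher past the threshold, and leaving out siNC replicate 2 gave 329 lower and 1 higher, whereas leaving out either siSTAMBPL1 library gave 0. A group left with 1 library is assumed there to vary like the other group, so the spread behind these calls comes from a single pair. Of the genes fitted on all libraries, 1712 have an annotated last exon event, with 59 higher and 66 lower at that unadjusted p. The median log2 difference was 0.07 over those and 0.05 over all 9933. MIR4435-2HG had 75 and 63 events in siSTAMBPL1 and 149 and 153 in siNC, a fitted difference of -0.72 ± 0.20 (SE) with an adjusted p of 0.588. PIGN had 91 and 88 in siSTAMBPL1 and 54 and 63 in siNC, with a difference of 1.01 ± 0.24 (SE) and an adjusted p of 0.517. ZEB2 had a difference of 1.13 ± 0.44 (SE) with an adjusted p of 0.723. The groups do not overlap in these 3 genes, and none of them passed.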

How the data were processed

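Each library's list of splicing events was made by the authors, and per the file headers gives a gene, an event identifier with coordinates, the transcripts of the first form and those of both forms. Genome build hg38 is per the submitters' processing notes. Neither aligner nor transcript or event caller is given in the sources used here. The deposited values are identifiers (other), with no quantity and no read depth. Events were matched by identifier. Symbols came from RefSeq (GRCh38.p14) by position and strand, for 10706 of 11931 genes. Per library measures were compared by exact permutation with SciPy. Events per gene were scaled to the library total, given a pseudocount of 1 and fitted as log2 values with limma (version 3.58.1, R 4.3.3, Python 3.11.15), with trend, for genes with at least 5 events. Gene lists and the rule for named genes (richest genes, extreme distances, most events in a group's pair, form reversals, list members) were chosen with earlier results of these data known, as were the members. Both the fit and the form inference were tested on simulated data. Replicate numbers do not pair the samples by the labels. A gene named by that rule is not reported here.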

Additional observations from a re-analysis of the deposited data

How the results depend on the processing

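Of 73 values under other settings, 52 stayed the same in direction and call. The 52 include values that could not change, as blocking by replicate number leaves a difference of group means as it is. The number of events and their share of annotated events stayed lower in siSTAMBPL1 under every setting tried, with leave-one-out differences of -858 to -360 events and -0.545 to -0.217 percentage points. The groups do not overlap in these measures, so leaving out a library could not turn their direction. With at least 2 Ensembl transcripts in each form the differences shrank to -3 events and -0.015 percentage points. Leave-one-out differences ran from -1.96 to 0.989 percentage points for the share with a PB transcript, from -1.70 to 3.10 for the distal share by PB transcripts, from -2.25 to 0.745 for the inferred distal share and from -1.5 to 228.5 bases for the median distance, so these 4 turned direction. With at least 2 Ensembl transcripts in each form, which left 32 events, the distal share by PB transcripts became 0, the inferred distal share 5, the median distance -112 and the pair-only counts 0 for siSTAMBPL1 and 1 for siNC. Over events in at least 2 libraries the distal share by PB transcripts became -1.90. Leaving out a library gave 219 to 687 events for the siSTAMBPL1 pair, 472 to 1138 for the siNC pair, and 0 to 330 genes in the limma fit. The pair-only counts grow because fewer libraries must then share or lack an event, and the spread in the limma fit then comes from 1 pair of libraries. The cause of the turns in direction was not tested. Same-numbered libraries did not deviate together (r = 0.019 across 9933 genes, which are not independent), the labels state no pairing, and with the replicate number as a block 0 genes passed. The number of reads is unknown, so an end not found is not shown to be absent.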
